A study of Macaca mulatta with 6 samples.

Results

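Bipolar cells carry the signal of rods and cones to the inner retina, and the genes described here are a set of their markers. They were taken from a list of 9 gene symbols: GRM6, TRPM1, NYX and GNAO1 of the ON signalling cascade, PRKCA and PCP2 of rod bipolar cells, and CABP5, VSX1 and GRIK1, which mark rod or cone bipolar types. Of the 9 genes, 7 had probe sets under their platform symbol, with 10 probe sets among the 52024 of the array, which names 14132 genes. GRM6 and NYX were not analysed here.

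The retinas came from 3 male rhesus macaques aged 8 to 10 years. In each monkey 1 intraorbital optic nerve was irradiated by gamma knife surgery with a prescribed dose of 15 Gy, and both eyes were taken 24 h later. The retina on the irradiated side is called the treated retina and that of the other side the control retina, so that the control is an eye of the same animal and not of an untreated one. The treated eyeball itself took up 3 Gy and the control eyeball 1 Gy, and nerve injury and this direct dose cannot be told apart. RNA of the temporal part of each retina, without the retinal pigment epithelium, was hybridized to 1 Affymetrix Rhesus Macaque Genome Array, which gave 3 control and 3 treated arrays. Values are log2 MAS 5.0 signals, MAS 5.0 being the Affymetrix method that summarises the probes of a probe set on each array and scales each array to a common mean. A log2 difference of 1 is a 2-fold difference, and signals of different probe sets are not on 1 scale. The sample labels give a replicate number but no monkey. Both retinas with the same number were taken to be the eyes of 1 monkey and form a pair.

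In darkness photoreceptors release glutamate, which ON bipolar cells sense through the receptor mGluR6, encoded by GRM6. The receptor acts through the G protein Go, whose alpha subunit is encoded by GNAO1, to close the cation channel TRPM1, and NYX encodes nyctalopin, a protein that places TRPM1 at the dendritic tip. Light ends the glutamate release, TRPM1 opens and the cell depolarizes. OFF bipolar cells instead use ionotropic glutamate receptors, among them the kainate receptor subunit encoded by GRIK1. The cell bodies of all these cells lie in the inner nuclear layer, and they do not send axons into the optic nerve. In RNA of whole retina, fewer bipolar cells and less RNA per cell cannot be told apart, and some of these genes are also active in other neurons, GNAO1 in most of them.

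No bipolar cell gene was called different between treated and control retinas. In the paired limma fit, with p-values adjusted by Benjamini-Hochberg across the whole array, 0 of the 10 probe sets had an adjusted p under 0.05, where 0.111% of all probe sets did. At an unadjusted p under 0.05, limma gave 0 of 10 against a background of 6.74%, and the methods' t-test gave 0 of 10 against 5.56%, so with 10 probe sets few or no calls would stand at the background rate either. By their brightest probe sets, those with the highest mean over the 6 arrays, the 7 genes differed by between −0.047 and 0.17 on the log2 scale, 4 above 0 and 3 below. Their median was 0.10, beside −0.038 over all probe sets and 0.032 over the brightest probe sets of all named genes. It was 0.0015 without replicate 2, 0.047 over all 10 probe sets and −0.018 with the probe sets of each gene averaged. Control and treated values overlapped for all 10 probe sets. The share of all probe sets that overlap was not counted, so this shows nothing particular to the set. The 95% intervals of 8 of the 10 lay within a log2 difference of 1 in either direction, and those of the dimmest VSX1 probe set and the dimmer PRKCA probe set reached beyond it.

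**Figure D1:**
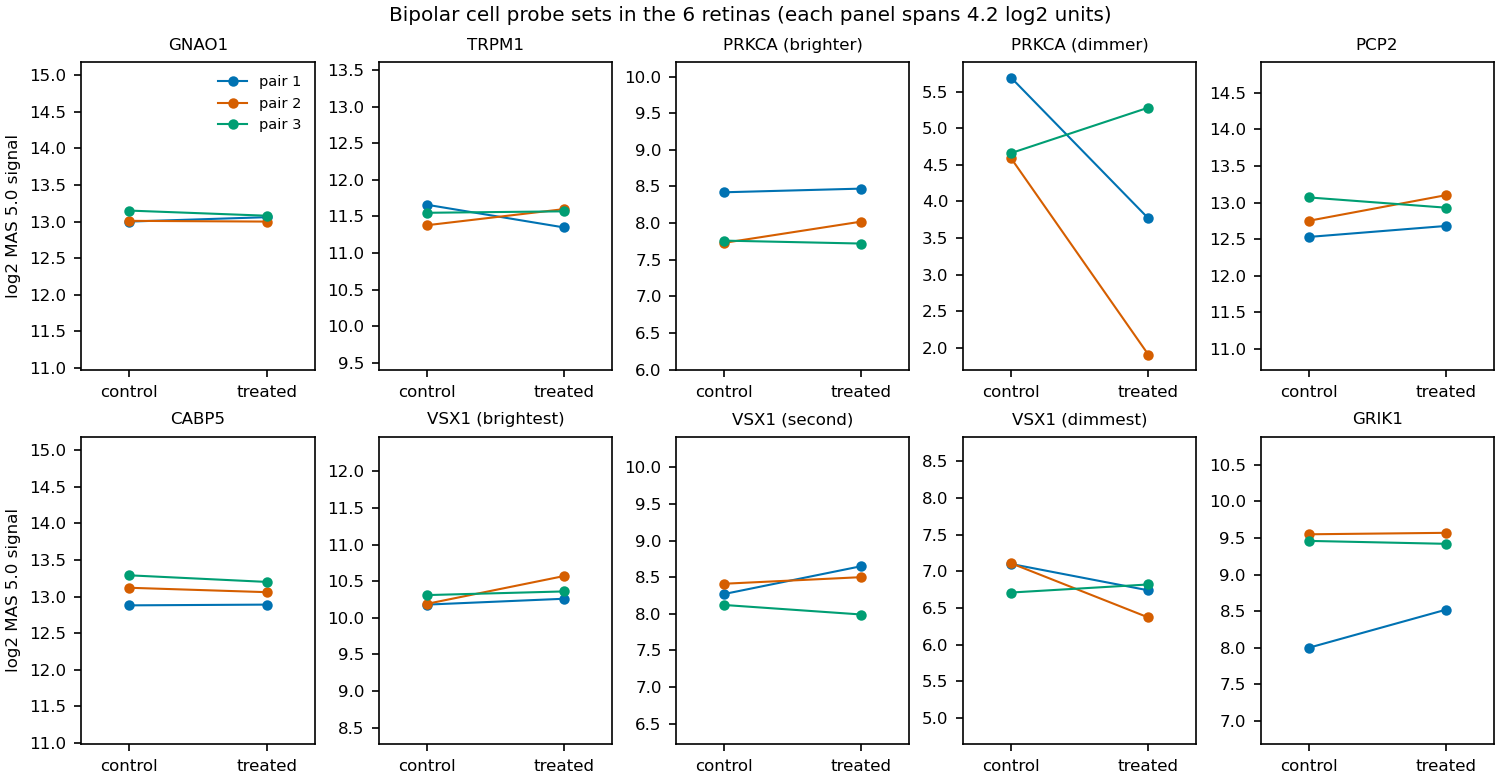
The log2 MAS 5.0 signal (y axis) of the 10 bipolar cell probe sets in control and treated retinas (x axis); each line joins both retinas of 1 pair, and every panel spans the same number of log2 units. GNAO1 and CABP5 are nearly flat in each pair, both GRIK1 values of pair 1 lie below those of the other pairs, and the dimmer PRKCA probe set is the one that scatters widely.

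Of the ON cascade, GNAO1 had the smallest difference of the set. Its log2 signals (probe set MmugDNA.12515.1.S1_at) were 13.00, 13.01 and 13.15 in the control retinas of pairs 1 to 3 and 13.06, 13.00 and 13.08 in the treated retinas. No retina stood apart, and the pair means went only from 13.01 to 13.12. The fitted log2 difference was −0.0069 (SE 0.087, adjusted p = 0.991 from limma), a fold of 0.995 with a 95% interval from 0.865 to 1.15. Of all probe sets, 98.3% had a larger absolute difference. The value was 0.090 with each array centred on its median, −0.029 after quantile normalization and 0.025 without replicate 3. Its sign is therefore not settled.

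TRPM1, the channel that the cascade closes and so the last element of it measured here, differed by less than the spread between retinas. Its log2 signals (MmugDNA.22112.1.S1_at) were 11.66, 11.38 and 11.55 in control retinas and 11.35, 11.60 and 11.57 in treated retinas. The pairs went in different directions, with −0.31 in pair 1, 0.23 in pair 2 and 0.02 in pair 3. The fitted log2 difference was −0.022 (SE 0.12, adjusted p = 0.979 from limma), a fold of 0.985 with an interval from 0.814 to 1.19. Without replicate 1 it was 0.12 and without replicate 2 it was −0.15. TRPM1 was also the member whose pair means were most alike, at 11.49 to 11.56.

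Neither PCP2 nor PRKCA, the genes listed for rod bipolar cells, passed the test, and neither kept 1 direction over the pairs. PCP2, a small protein that binds Go alpha subunits and is abundant in rod and some ON cone bipolar cells, had log2 signals (MmugDNA.13834.1.S1_at) of 12.53, 12.75 and 13.07 in control and 12.68, 13.10 and 12.93 in treated retinas. Pairs 1 and 2 stood higher in the treated retina by 0.14 and 0.34, and pair 3 lower by 0.14 (treated minus control −0.14). The log2 difference of PCP2 was 0.12 (SE 0.11, interval −0.14 to 0.37, adjusted p = 0.835 from limma), and without replicate 2 it was 0.0015.

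PRKCA encodes protein kinase C alpha, the usual antigen by which rod bipolar cells are stained and which tunes their light response. It had a pair of probe sets that disagreed. The brighter (MmugDNA.7366.1.S1_at) had log2 signals of 8.42, 7.73 and 7.76 in control and 8.47, 8.02 and 7.72 in treated retinas, with a log2 difference of 0.10 (SE 0.18, interval −0.33 to 0.53, adjusted p = 0.923 from limma). Without replicate 2 that value was 0.0030 and without replicate 3 it was 0.17. Both retinas of pair 1 were the highest of the 6 there. The dimmer (MmuSTS.1243.1.S1_at) read 5.69, 4.59 and 4.66 in control and 3.77, 1.91 and 5.28 in treated retinas, lower in pairs 1 and 2 and higher in pair 3. Its difference of −1.33 was the largest of the 10 in size, yet its SE was 0.85 and its interval ran from −3.31 to 0.66 (adjusted p = 0.769 from limma). The mean signal of this probe set was 4.32, in the range under 5 where MAS 5.0 values scatter widely, and with 16 added to the signals before the log its difference was −0.60. Without replicate 3 it was −2.30 and without replicate 2 it was −0.65.

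CABP5, a calcium-binding protein of rod bipolar cells and of some cone bipolar types, was steady within each pair while its level differed between pairs. Its log2 signals (MmugDNA.6224.1.S1_at) were 12.88, 13.12 and 13.29 in control and 12.89, 13.06 and 13.20 in treated retinas, so that both eyes kept the order of the pairs. No pair differed between its eyes by more than 0.09, whereas the pair means spanned 0.37. The log2 difference was −0.047 as deposited and 0.050 with median centring (SE as deposited 0.086, adjusted p = 0.923 from limma), and the fold of 0.968 had an interval from 0.842 to 1.11.

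VSX1, a homeobox transcription factor of cone bipolar cells, was read by 3 probe sets. The brightest (MmugDNA.204.1.S1_at) was the only 1 of the 10 probe sets with the same direction in all 3 pairs. The share of all probe sets that keep 1 direction was not counted, so this does not set it apart. Its log2 signals were 10.18, 10.19 and 10.31 in control and 10.26, 10.57 and 10.36 in treated retinas, and the pair differences were 0.08, 0.37 and 0.05. The difference of 0.17 (SE 0.11, interval −0.09 to 0.42) did not pass (adjusted p = 0.775 from limma), and without replicate 2 it was 0.061. The second (MmugDNA.35204.1.S1_at) read 8.27, 8.41 and 8.12 in control and 8.65, 8.50 and 7.99 in treated retinas, with a log2 difference of 0.11 (SE 0.18) as deposited and −0.018 without replicate 1. The dimmest (MmugDNA.205.1.S1_at) read 7.10, 7.11 and 6.71 in control and 6.74, 6.37 and 6.82 in treated retinas, a difference of the other sign at −0.33 (SE 0.32), which was −0.13 without replicate 2 and −0.56 without replicate 3. The 3 probe sets therefore gave VSX1 no common direction, and all 3 intervals held 0.

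GRIK1, a kainate receptor subunit through which OFF bipolar cells respond to glutamate, differed far more between monkeys than between eyes. Its log2 signals (MmuSTS.4512.1.S1_at) were 8.0, 9.55 and 9.46 in control and 8.52, 9.57 and 9.42 in treated retinas. Both retinas of pair 1 lay below the other 4, which lay close together. The treated minus control difference was 0.52 in pair 1, 0.01 in pair 2 and −0.04 in pair 3, and the fitted log2 difference was 0.17 (SE 0.16, interval −0.19 to 0.53, adjusted p = 0.829 from limma). Without replicate 1 it was −0.011, so the positive value came from pair 1.

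**Figure D2:**
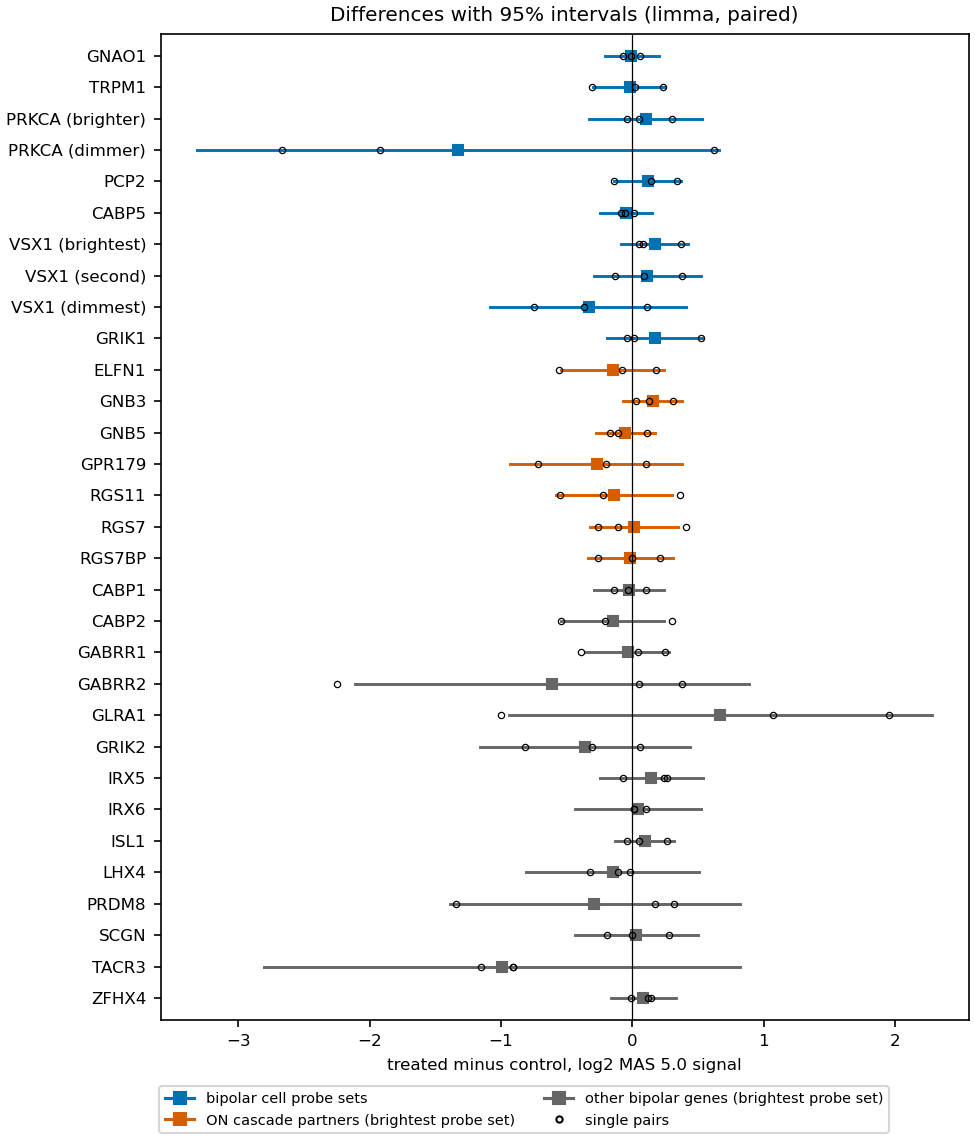
Treated minus control difference in log2 MAS 5.0 signal (x axis) for the 10 bipolar cell probe sets, 7 ON cascade partners and 14 other bipolar genes (y axis); squares are the limma estimates, bars their 95% intervals and open circles the single pairs. Every interval holds 0, and the wide ones belong to dim probe sets such as the dimmer one of PRKCA and that of TACR3.

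Within the set, ON cascade genes and the other markers can be set side by side pair by pair. The median of GNAO1 and TRPM1 was −0.13 in pair 1, 0.11 in pair 2 and −0.026 in pair 3. For PCP2 and the brighter PRKCA probe set it was 0.096, 0.32 and −0.092, and for CABP5, VSX1 and GRIK1 by their brightest probe sets 0.076, 0.013 and −0.036. Neither the ON cascade nor the other markers kept 1 direction over the pairs. Over all 7 genes the median was 0.059, 0.23 and −0.043, with 6, 5 and 2 genes above 0 in pairs 1 to 3. Pair 2, where the members' median was highest, held the treated array with the lowest median log2 signal of the 6 (6.44, against 6.74 in its control) and the largest share of signals under 5 (29.7%). Among the 8328 probe sets with a mean signal of at least 10, the pair medians were 0.022, 0.050 and −0.022, in the same order as those of the members. The part of array scaling in the members' pair values was not tested.

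Differences between monkeys exceeded those between the eyes of a monkey for most of these genes, as they did in the medians over all named genes. By the brightest probe sets, the span from the lowest to the highest pair mean was set against the largest treated minus control difference of any pair. The span was larger for 5 of the 7 genes, with TRPM1 and VSX1 as the exceptions. The share of all probe sets for which it is larger was not counted. The span was 1.30 for GRIK1, 0.70 for PRKCA, 0.40 for PCP2, 0.37 for CABP5, 0.16 for VSX1, 0.11 for GNAO1 and 0.07 for TRPM1. The median span over the 7 genes was 0.37 and the median of their mean absolute pair differences was 0.17. The same medians were 0.59 and 0.28 over the brightest probe sets of all named genes. A larger spread between monkeys than between eyes was thus not particular to the set. Probe sets with a mean signal of at least 10 had 0.42 and 0.17, and those of at least 8 had 0.49 and 0.20. GRIK1 and PRKCA had mean signals of 9.09 and 8.02 and the other members lay above 10. The members' small differences between eyes were near those of other probe sets in these ranges.

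**Figure D3:**
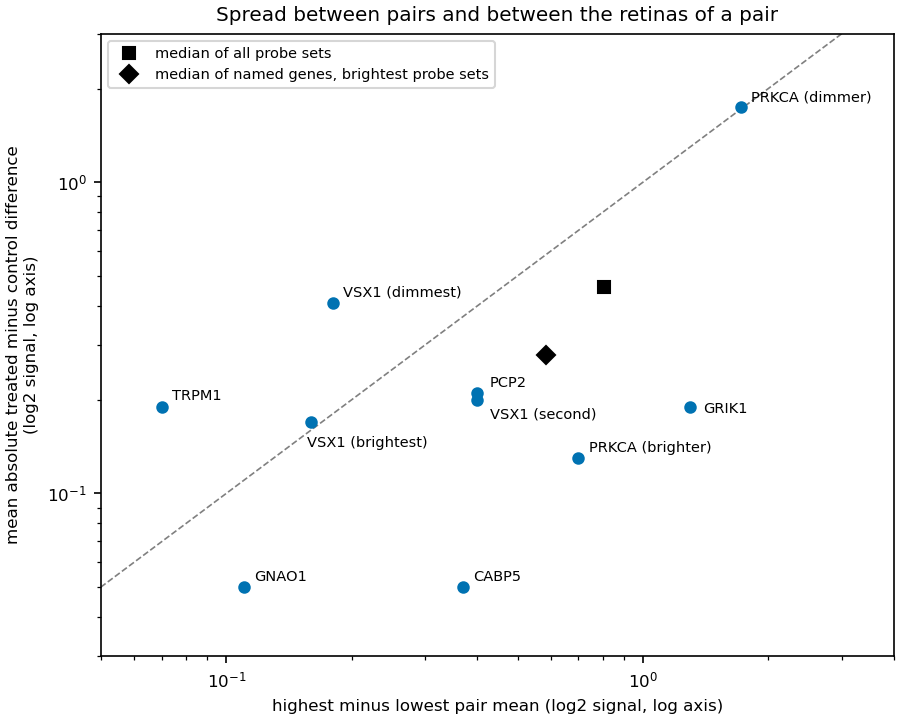
Spread of the 10 bipolar cell probe sets (blue) between pairs (x axis, highest minus lowest pair mean) and between the retinas of a pair (y axis, mean absolute treated minus control difference), both in log2 signal on log axes; the dashed line marks equal values, and black symbols are medians over the array. GRIK1 (1.30 against 0.19) and CABP5 (0.37 against 0.05) lie far below the line and TRPM1 (0.07 against 0.19) above it.

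Other genes of the synapse between photoreceptors and ON bipolar cells held no call either. A list of 9 partners of the mGluR6 cascade from general knowledge had 7 measured genes with 10 probe sets, of which 0 passed limma after adjustment, 0 at an unadjusted p under 0.05 and 0 by the methods' t-test. By their brightest probe sets 2 were above 0 and 5 below, with a median of −0.056. GNB3, the G protein beta subunit that pairs with Go in ON bipolar cells, had log2 signals of 12.93, 13.45 and 13.22 in control and 12.96, 13.77 and 13.35 in treated retinas. It stood higher in 3 of 3 pairs, with a difference of 0.16 (SE 0.096, interval −0.07 to 0.38, adjusted p = 0.756 from limma) that did not pass. RGS11, a GTPase-activating protein that speeds the shut-off of Go, stood at −0.14 (SE 0.19), and GPR179, which anchors such proteins at the dendritic tip, at −0.27 (SE 0.28). ELFN1, a rod synaptic protein that binds mGluR6 across the cleft, stood at −0.15 (SE 0.17). GNG13 and LRIT3 of that list were not analysed here.

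A second list of 23 genes of bipolar identity and synapses had 14 measured genes with 21 probe sets. Here 0 probe sets passed limma, adjusted or not, and 1 passed the methods' t-test without adjustment and 0 with it. Their median by the brightest probe sets was −0.030, with 6 above 0 and 8 below. ISL1, a transcription factor of ON bipolar, amacrine and ganglion cells, had log2 signals of 11.48, 11.37 and 11.29 in control and 11.53, 11.63 and 11.25 in treated retinas, a difference of 0.094 (SE 0.098, adjusted p = 0.850 from limma). The kainate receptor subunit gene GRIK2 stood at −0.36 (SE 0.34) and the glycine receptor subunit gene GLRA1 at 0.67 (SE 0.69). A dimmer GRIK2 probe set stood at −0.59, with −0.38, −0.45 and −0.93 in pairs 1 to 3 (adjusted p = 0.778 from limma). TACR3, the neurokinin receptor NK3 of some cone bipolar cells, was the 1 probe set of the t-test. It read 5.52, 3.44 and 2.95 in control and 4.61, 2.29 and 2.05 in treated retinas, below in 3 of 3 pairs. Its log2 difference of −0.99 had an SE of 0.78 in limma, whose prior variance is wide for dim probe sets such as this one with a mean signal of 3.48 (adjusted p = 0.801). Both lists come from general knowledge, and many of the genes in the second are also active in other retinal cells. Genes of the partner list, GNB3 and ELFN1 included, are likewise not read here as signals of ON bipolar cells alone.

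The other cells of the retina were followed by 9 lists of 56 markers, of which 40 genes were measured. By their brightest probe sets 0 passed after adjustment, and at an unadjusted p under 0.05 there were 6 higher and 9 lower, against backgrounds of 2.97% and 3.77% of all probe sets. Rod markers, the input of rod bipolar cells, were below 0 in 6 of 6 genes with a median of −0.17 and 2 lower at an unadjusted p under 0.05. NR2E3 among them stood at −0.0003, which is no difference. The summed linear signal of the rod markers lay between 166386 and 200327 in control and between 144110 and 186160 in treated retinas. These ranges overlapped, but they ignore the pairing. Within pairs 1 to 3 the median of the rod markers was −0.185, −0.224 and −0.133. Cone markers had a median of −0.044 with 1 lower, and amacrine markers one of 0.014 with 1 lower. Horizontal cell markers were below 0 in 4 of 4 genes with a median of −0.30 and 2 lower, PROX1 and LHX1. LHX1 had a mean signal of 4.30, in the range under 5 where values scatter widely. Müller glia markers had a median of −0.28 with 1 higher and 3 lower. Ganglion cell markers were above 0 in 3 of 3 genes with a median of 0.36 and 2 higher, and microglia markers in 4 of 4 genes with a median of 0.62 and 2 higher. The 2 blood markers had a median of 0.63 with 1 higher, the leukocyte gene PTPRC at 0.97. The other, the haemoglobin gene HBB, stood at 0.28 (SE 0.30), with 0.65, −0.69 and 0.88 in pairs 1 to 3. The 4 pigment epithelium markers had a median of −0.42 with 0 in either direction. The part of other cell types in the bipolar values was not tested.

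The gene profile nearest to TRPM1 over the 6 arrays was that of KLHL22, an adaptor of a ubiquitin ligase (Pearson's r = 0.954), followed by PAFAH2, a phospholipase (r = 0.917), and ASB6, an ankyrin repeat and SOCS box protein (r = 0.915). These were the highest of 9673 named genes with a mean signal above the median, compared over only 6 arrays in which TRPM1 itself varied little, and high values are expected among so many. None of these was a bipolar cell gene of the lists used here.

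**Figure D4:**
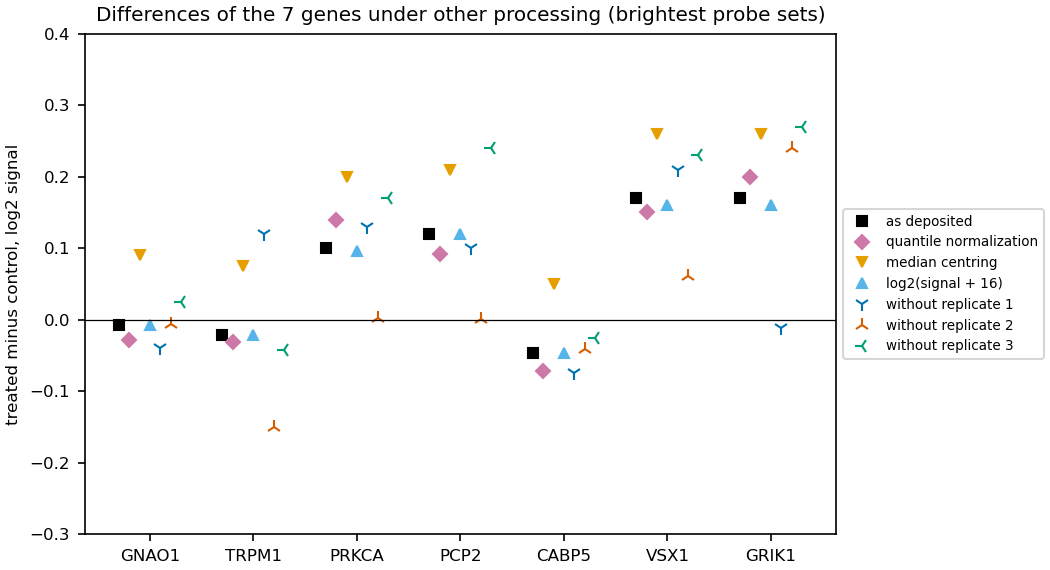
Treated minus control difference in log2 signal (y axis) of the 7 bipolar cell genes by their brightest probe sets (x axis) as deposited and under 6 other settings. All values lie between −0.15 and 0.27, and those of GNAO1, TRPM1, CABP5 and GRIK1 fall on both sides of 0.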

How the data were processed

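The authors deposited log2 values of MAS 5.0 signals computed with GeneSpring, 1 array per retina. Of the MAS5 tool no version is stated in the sources read, and no detection call entered. No normalization between arrays was added here, and the medians of the arrays as deposited lay between 6.44 and 7.03. Probe sets were matched to genes by platform symbol, and 361 with several symbols were left unnamed. Differences of treated from control retinas were fitted over all 52024 probe sets by limma 3.58.1 (R 4.3.3), using eBayes with an intensity trend, a block for the replicate number and Benjamini-Hochberg adjustment over all probe sets. The study's own test is paired by monkey. Deviations from the group means correlated at 0.357, 0.137 and 0.161 between arrays of the same number and at −0.243 to 0.104 between others, which puts the replicate block in the fit.

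The members and lists were chosen with earlier results of these data known, so lists are described by counts and medians with no set test. The text names every member, the 4 genes of each bipolar list with the largest moderated statistic, and the 3 genes nearest in profile to TRPM1. Alternatives were a fit with no replicate block, the methods' t-test, no variance trend, quantile normalization, median centring, a filter at a mean log2 signal of 5, 16 added to the signal, and leaving out each pair. The fit was tested on simulated data. Figures were drawn with matplotlib 3.10.9. No sequences or coordinates are given. The number of arrays limits the precision.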

Additional observations from a re-analysis of the deposited data

How the results depend on the processing

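Under the 10 alternatives fitted across probe sets, 0 of the 10 bipolar cell probe sets had an adjusted p under 0.05, and 0 passed without adjustment. The smallest unadjusted p was 0.0514, for the dimmer PRKCA probe set without replicate 3 (adjusted p = 0.538 from limma). With no replicate block, 0 member probe sets passed. The median over the 7 genes stayed at 0.10, which the balanced pairs fix in advance. That median was 0.092 after quantile normalization, 0.20 with median centring, 0.0015 without replicate 2, 0.17 without replicate 3, and −0.018 with the probe sets of each gene averaged. Of 99 member values under alternatives, 92 kept their direction and 7 turned. The fit with no block, the t-test, the fit with no variance trend and the dim filter leave the log2 difference itself unchanged. Their values in this count could therefore not turn. Median centring turned GNAO1 to 0.090, TRPM1 to 0.075 and CABP5 to 0.050, and the median of all probe sets went from −0.038 to 0.059 with it. Leaving out 1 pair gave −0.040 to 0.025 for GNAO1, −0.15 to 0.12 for TRPM1, −0.011 to 0.27 for GRIK1 and −0.018 to 0.24 for the second VSX1 probe set. The partner and other bipolar lists had 0 probe sets past the adjusted threshold throughout. At an unadjusted p under 0.05, the partners had 1 without replicate 2 and the other list 1 by the methods' t-test, 1 with no variance trend and 1 without replicate 3. The dimmer PRKCA probe set was removed by the filter on dim probe sets, so it has no value there. Mean signals under 5 limit what can be said of the dimmer PRKCA probe set, of TACR3 and of LHX1.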
